A study of Mus musculus with 30 samples.

Results

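Cytosolic ribosomal protein genes were followed in kidney and gastrocnemius RNA-seq of mice on a chow diet (CD), a western diet (WD) or the WD with cyclo(His-Pro) (WD + CHP). Members were taken by symbol, as every gene named *Rps* or *Rpl* with a number and an optional suffix, together with *Rpsa*, *Rplp0*, *Rplp1* and *Rplp2*, and without the pseudogene rows with -ps in their names. This gave 89 genes, 36 of the small subunit and 53 of the large subunit, of 54838 genes in the kidney table and 55487 in the gastrocnemius table. Of these, 83 are protein coding and 6 are annotated as pseudogenes in GENCODE for GRCm38 (*Rpl32l*, *Rpl6l*, *Rps12l1*, *Rps3a2*, *Rps3a3* and *Rps4l*). All mice were wild-type C57BL/6J males kept at thermoneutrality (30 to 32 °C). The CD group ate chow and received water, the WD group ate the WD and received water, and the WD + CHP group ate the WD and received 20 mg/kg of the cyclic dipeptide CHP by gavage, 3 times a week from Week 7. Tissue was taken at Week 24, when the mice had fasted for 3 h. There were 5 libraries per group in each tissue and 30 in all. The study's methods describe sequencing of RNA from single mice. The labels number the libraries as replicates and do not say which kidney and gastrocnemius libraries come from the same mouse.

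The cytosolic ribosome reads mRNA and joins amino acids into protein. Its small subunit binds the mRNA and checks codons, and its large subunit forms the peptide bond and holds the exit tunnel. One copy of nearly every ribosomal protein is built into each ribosome, and surplus protein is degraded, so these genes are known for matched expression. Their transcripts are short and carry a pyrimidine tract at the very start, the 5′ terminal oligopyrimidine (TOP) motif, through which mTORC1 sets their translation. In skeletal muscle a paralog of *Rpl3*, named *Rpl3l*, is known to take the place of *Rpl3* in many ribosomes. Because the samples are bulk tissue, fewer cells of a type and less RNA per cell cannot be told apart in any value below.

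Starts of 6 members are printed here to show pyrimidine runs near the start, where they lie at different distances from it. *Rpl22l1* and *Rpl3l*, paralogs that stand apart between the tissues, are among them. Sequences are from RefSeq (GRCm38.p6) and run 5′ to 3′ on the gene's strand, from 45 bases before the annotated start to 15 bases from the start on. Capitals mark runs of at least 8 pyrimidines that begin with C. The windows are chr4:86857353-86857412 (minus strand) for *Rps6*, chr7:141447606-141447665 (plus) for *Rplp2*, chr3:90213634-90213693 (minus) for *Rps27*, chrX:37085208-37085267 (minus) for *Rpl39*, chr3:28805463-28805522 (plus) for *Rpl22l1* and chr17:24727781-24727840 (plus) for *Rpl3l*.
Rps6: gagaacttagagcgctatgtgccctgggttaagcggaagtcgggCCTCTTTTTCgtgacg
Rplp2: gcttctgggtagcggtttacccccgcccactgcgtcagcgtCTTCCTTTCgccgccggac
Rps27: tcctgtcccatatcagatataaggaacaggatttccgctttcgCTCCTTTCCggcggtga
Rpl39: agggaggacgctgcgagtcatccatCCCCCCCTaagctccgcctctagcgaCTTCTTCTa
Rpl22l1: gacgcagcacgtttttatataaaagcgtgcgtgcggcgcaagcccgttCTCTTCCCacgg
Rpl3l: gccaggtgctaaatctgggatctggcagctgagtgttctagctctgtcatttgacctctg

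RefSeq starts were given for 64 of the 89 members. A pyrimidine run of this kind lay between 40 bases before and 50 bases after the start, on the gene's strand, in 52 of the 64 (81.2%) and in 28.9% of all 27025 genes with a start. A run whose first base lay within 5 bases of the annotated start, as in *Rps6*, *Rplp2*, *Rps27* and *Rpl22l1* above, was found in 22 of the 64 (34.4%) and in 5.17% of all genes. In *Rpl39* the printed runs begin farther from the annotated start, and in *Rpl3l* the run lies past the window printed. *Rpsa* had no such run in the longer window. The letters CCGGAAG, searched on both strands from 250 bases before to 50 bases after the start, were found in 40.6% of the members and 9.93% of all genes. The letters AAGATGGC were found in 9.38% and 3.19%. TATAAA, searched on the gene's strand in the last 50 bases before the start, was found in 1.56% and 3.15%. These matches describe letters and show no binding.

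Kidney libraries held 37189192 to 38211422 counts and gastrocnemius libraries 50319024 to 53282969. The members took 0.939% to 1.13% of the counts in kidney and 0.742% to 1.12% in gastrocnemius. The sample labels name frozen liver as the starting material, so the tissues were checked against marker genes. Markers of the proximal tubule summed to 29710 to 37400 CPM (counts scaled to a common library total) in kidney, while 9 of these 10 markers were under 1 CPM in gastrocnemius. Markers of fast muscle fibres summed to 214200 to 288900 CPM in gastrocnemius, and 9 of these 10 were under 1 CPM in kidney. Gastrocnemius WD replicate 5 stood apart in the members themselves, with a member share of 1.12% against 0.757% to 0.882% in the other 4 WD libraries. Gastrocnemius CD replicate 5 held testis transcripts, and kidney WD replicate 5 held the most liver transcripts, with 16419 counts of *Alb* against at most 3110 in any other kidney library. For the comparisons between groups, the medians of the members are given with and without these libraries, and the levels between tissues with all libraries. In gastrocnemius *Alb* had 2657 counts in WD replicate 3 and 2473 in the next highest library, against 14 in the lowest.

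The level of the members in CPM, which were scaled within each tissue, differed between the tissues. The 83 coding members had a median of 114 CPM in kidney and 74.6 CPM in gastrocnemius. Per kilobase of coding sequence the medians were 228 and 160 CPM. In 33 of the 83 every kidney library was above every gastrocnemius library, and in 10 every gastrocnemius library was above every kidney library. The share of all genes with such a gap was not computed, so these counts describe the members only. Gastrocnemius WD replicate 5 alone kept some members out, such as *Rps29*. It was at 63.3 CPM there and at most 19.9 in the other gastrocnemius libraries, against at least 56.95 in kidney. The median log2 difference of gastrocnemius from kidney was -0.52. It was -0.81 for the members with a coding sequence under 400 nt, -0.72 for those of 400 to 600 nt and -0.14 for those over 600 nt. The tissues were deposited in separate tables, so tissue and any difference in processing between the tables cannot be told apart here. The make-up of the RNA differed too, as the 10 highest genes took 24.6% of the counts in kidney CD and 33.0% in gastrocnemius CD. The part of this in the difference between tissues was not tested.

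Within a tissue the levels per kilobase spread widely. In kidney, *Rpl41*, the shortest member with a coding sequence of 75 nt, was highest at 2491 CPM per kilobase, followed by *Rplp1* of the ribosomal stalk at 543. In gastrocnemius the order was led by *Rps2* at 649, *Rplp0* of the stalk at 464, *Rpl4*, which lines the exit tunnel, at 387, *Rpsa*, also known as the laminin receptor, at 341, and *Rpl3l* at 338. *Rpl41* followed at 333. A coding length this short makes the value per kilobase of *Rpl41* depend strongly on the length used, since reads on untranslated ends may be counted too. On the scale of CPM, *Rpl41* had a mean of 187 in kidney (157 to 205 over the libraries) and of 25.0 in gastrocnemius (17.9 to 54.1).

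The 10 members higher in every gastrocnemius library were led by *Rpl3l* (log2 difference 8.02), *Rpl23a* (2.74) and *Rpl22l1* (2.49). *Rpl22l1* is a paralog of *Rpl22*, an RNA-binding protein of the large subunit. *Rpl35* followed at 1.01, with *Rpl30*, *Rps2*, *Rpl13* and *Rpl4* among those below it. Genes on the opposite strand overlap the exons of *Rpl23a* over 55.4% of their bases (*Tlcd1*), those of *Rpl35* over 68.3%, those of *Rpl30* over 57.45% and those of *Rpl22l1* over 28.8%. The strand setting of the counting is not given in the sources used here, so the counts of these 4 are uncertain.

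**Figure D1:**
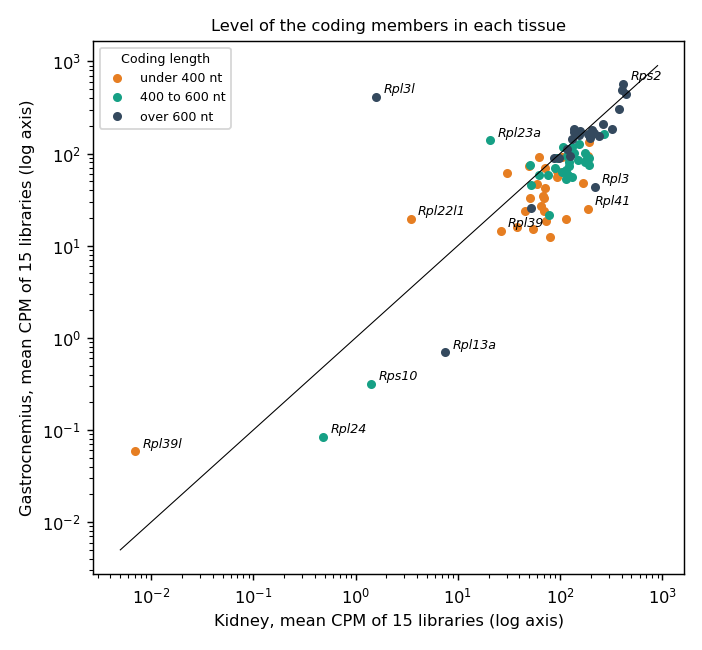
Mean CPM of each coding member in kidney (x, log axis) and gastrocnemius (y, log axis), over 15 libraries each, coloured by coding length, with a line of equal level. *Rpl3l*, *Rpl23a* and *Rpl22l1* lie far above the line and most short members below it. *Rpl10l*, at 0 in kidney, cannot be drawn on a log axis.

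A few members that every ribosome is thought to need were counted at very low levels. *Rpl24* had a mean of 0.483 CPM in kidney and 0.0843 in gastrocnemius, *Rps10* 1.42 and 0.319, and *Rpl13a* 7.54 and 0.696. Other annotated genes on the same strand overlap 71.5%, 53.6% and 59.3% of their exon bases (*Gm28037*, *RPS10-NUDT3* and *Gm45713*), and the rows of these genes held 0 counts in every library of each table that lists them. Whether the overlap lowered the counts was not tested. Sequence shared with other genes is common in this family. A median of 53.1% of the 50-base stretches of a coding member's transcript also occur in another gene, the share is over 50% in 45 coding members, and it is 0% in members such as *Rpl3l* and *Rpl39l*. How reads that fit several places were counted is not given in the sources used here, so levels of members with near-identical copies are uncertain. The -ps rows held 0.298% to 0.398% as many counts as the members.

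The first question was how the WD changed the members. In kidney 0 of the 86 members that passed the filter on low counts were called by edgeR's quasi-likelihood test (Benjamini-Hochberg adjusted p under 0.05 over all genes tested), where 9.65% of all 17120 genes were called. At an unadjusted p under 0.05 there were 4 members, where 24.9% of all genes were. By fold change 71 members were higher in WD and 15 lower, with a median log2 fold change of 0.043 against 0.0015 over all genes. With library totals in place of TMM scaling (which sets each library's scale from the bulk of its genes) 60 were higher and 26 lower, with a median of 0.023, and with the length and GC correction described below 52 were higher and 34 lower, with a median of 0.016. With 1 library left out the median ranged from 0.011 (without CD replicate 1) to 0.078 (without CD replicate 5), and it was 0.072 without WD replicate 2, the WD library lowest in the members. By coding length the members' medians were 0.048 under 400 nt, 0.052 for 400 to 600 nt and 0.028 over 600 nt, and those of other genes 0.051, 0.034 and -0.0020, so short genes outside the family lay on the same side. Of the 10 members fixed for their roles (*Rpsa*, *Rplp0*, *Rplp1*, *Rplp2*, *Rps6*, *Rps27a*, *Rpl5*, *Rpl11*, *Rpl41* and *Rps29*), all 10 were on the higher side, by 0.0044 to 0.092, and none was called. The median per library, after centring each gene, ranged from -0.15 to 0.095 in CD and from -0.078 to 0.068 in WD, so the groups overlapped. Without kidney WD replicate 5 the median was 0.037. Markers of cell types moved between these groups too. Of 10 proximal tubule markers 2 were called higher (*Miox*, 0.36, and *Slc5a2*, 0.40) and 2 lower, *Cubn* (-0.32) among them, and their sum was 33120 to 36570 CPM in CD and 29710 to 33210 CPM in WD. All 7 lymphocyte markers tested were higher in WD and 3 were called, among them *Ighm* (1.76) and *Cd8a* (0.84), and their summed level was 10.1 to 45.3 CPM in CD and 33.9 to 124 CPM in WD. All 6 fibroblast markers were higher and 2 were called (*Col1a1*, 0.73, and *Col1a2*, 0.38), with 99.9 to 138 CPM in CD and 125 to 146 CPM in WD. All 6 hepatocyte markers were higher and 2 were called (*Ttr*, 0.85, and *Serpina1a*, 0.87), with 103 to 239 CPM in CD and 191 to 829 CPM in WD. The part of these cells in the members' values was not tested.

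The lowest p in kidney belonged to *Rps10*, a small subunit protein that is ubiquitylated on stalled ribosomes. Its CPM was 1.78, 1.58, 1.60, 1.81 and 1.68 in the CD libraries and 0.950, 1.09, 1.41, 1.42 and 1.40 in the WD libraries. Every WD library lay below every CD library, and in either direction these groups were free of overlap in 8.7% of all genes. Its log2 fold change was -0.43 ± 0.15 (SE), with an adjusted p of 0.0851. It was the single member whose CD and WD libraries did not overlap. *Rps26*, at the mRNA exit of the small subunit, followed at 0.15 (adjusted p = 0.131), *Rpl28* at 0.12 (adjusted p = 0.151), *Rpl6l* at 0.59 (adjusted p = 0.182) and *Rpl10a* at 0.079 (adjusted p = 0.206). None of the 5 passed the threshold in this fit. *Rpl6l*, an annotated pseudogene, was at only 0.206 to 0.569 CPM over the kidney libraries.

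In gastrocnemius 1 of 84 members was called for WD vs. CD, where 8.63% of all 15419 genes were called and 3.96% were called lower. The called member is not reported here. The groups did not overlap in 1 member, lower in WD, where in either direction they did not overlap in 7.84% of all genes. The count of calls was 0 when any 1 of CD replicates 1, 2 and 5 and WD replicates 1, 2 and 3 was left out, and 2 without WD replicate 4. *Rpl4* was at 498.3, 490.1, 533.7, 511.6 and 532.6 CPM in CD, at 453.6, 459.2, 438.0, 495.4 and 482.3 in WD and at 469.5, 460.2, 470.6, 514.1 and 478.9 in WD + CHP. Most of its WD libraries lay below CD, but the groups overlapped, as WD replicate 4 was above CD replicate 2. Among members that did not pass the test, those with the lowest p values included *Rpl4* (-0.14, adjusted p = 0.0723), *Rpl6* (-0.12, adjusted p = 0.105), *Rpl3l* (-0.11, adjusted p = 0.137) and *Rpl8* (-0.11, adjusted p = 0.263), all of the large subunit.

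The direction of the family in gastrocnemius WD vs. CD changed with 1 library and with the model. With all libraries 49 members were higher and 35 lower, and the median was 0.027 against 0.0013 over all genes. The median was 0.13 for the 27 members under 400 nt, 0.022 for the 29 of 400 to 600 nt and -0.054 for the 24 over 600 nt. Other genes of the same lengths had medians of 0.072, 0.049 and -0.0036. Without WD replicate 5 the members' median was -0.145, against -0.0083 over all genes, with 2 members higher and 82 lower. With all libraries kept, the median was -0.040 with the length and GC correction described below and -0.219 with an adipocyte score as a covariate. In the fit without WD replicate 5, 31 members had an unadjusted p under 0.05, all lower, where 23.5% of all genes did. In the same fit without this library 3 members were called, where 7.93% of all genes were. These called members included *Rpl8* (-0.18, adjusted p = 0.0271) and *Rpl10* (-0.16, adjusted p = 0.0393). With all libraries the markers of fast muscle fibres were lower in 9 of 10, with *Ckm* (-0.26) and *Acta1* (-0.22) called, and summed to 243400 to 288900 CPM in CD and 214200 to 247000 CPM in WD. The 6 markers of slow fibres (median 0.58) and the 8 of macrophages (median 0.31) were all higher, none of them called. Mitochondrially encoded genes took 8.91% ± 1.05 of the counts in CD and 10.05% ± 0.587 in WD, and the 10 highest genes 33.0% ± 0.788 and 30.7% ± 0.907 (SD, n = 5). Their part in the members' values was not tested.

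**Figure D2:**
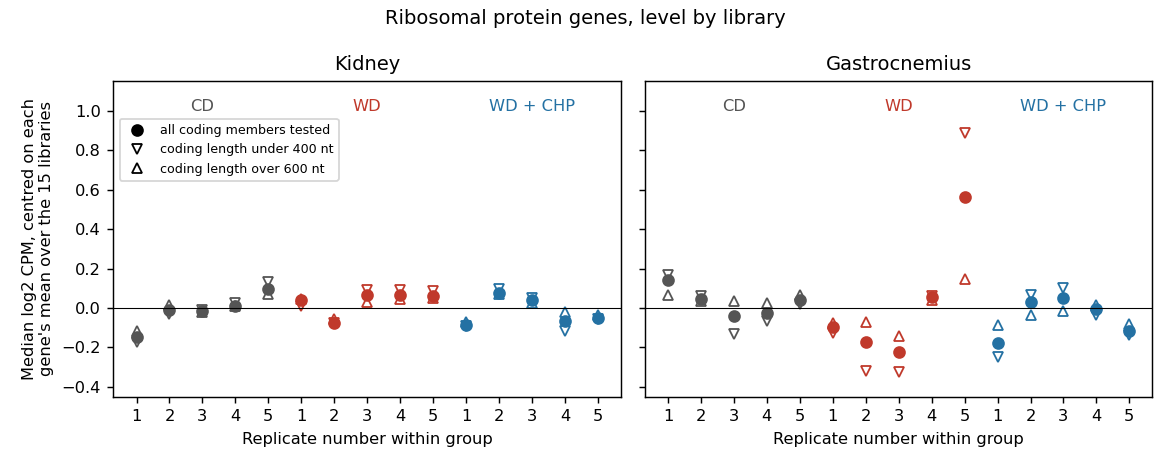
Median log2 CPM of the coding members tested, centred on each gene's mean over the 15 libraries of its tissue, by library (x, replicate number within group), for all members and for the short and long ones. In gastrocnemius WD replicate 5 the median of all members was 0.56 and that of the short members 0.89, while the other 4 WD libraries lay between -0.22 and 0.054 for all members.

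Gastrocnemius WD replicate 5 carried more of the members the shorter they were. It had the lowest total of the 15 libraries, 50319024 counts. It was above all 14 other gastrocnemius libraries in 71 of the 80 coding members tested, which were all 27 under 400 nt, all 29 of 400 to 600 nt and 15 of the 24 over 600 nt. The same was true of 54.5% of other genes under 400 nt, 37.1% of those of 400 to 600 nt and 7.98% of those over 600 nt. Over the mean of the other 4 WD libraries, the members' median fold was 2.05, 1.57 and 1.14 in the 3 length classes, and that of other genes 1.27, 1.12 and 0.964.

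The most raised was *Rps29*, a small zinc-binding protein of the small subunit (ENSMUSG00000034892, chr12:69157722-69159186, minus strand). Its CPM in WD was 13.8, 10.7, 10.1, 17.5 and 63.3, a 4.85-fold excess of replicate 5 over the mean of the others. In CD it was 18.0, 16.6, 12.4, 16.4 and 16.9, and in WD + CHP 13.9, 18.7, 19.9, 15.5 and 14.9. Apart from the 1 library, all groups overlapped. *Rpl39*, a small protein of the exit tunnel, was at 44.1 CPM in replicate 5 and at 9.78 to 13.6 in the other WD libraries, a 3.84-fold excess. *Rps27* was 3.83-fold higher there, *Rpl38* 3.79-fold, *Rps28* 3.58-fold, *Rpl41* 2.64-fold and *Rplp1* 2.56-fold. The long members *Rpl3* (0.932-fold) and *Rpl3l* (1.06-fold) were close to the other WD libraries. The part that transcript length, RNA quality or the state of this muscle had in the excess was not tested.

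**Figure D3:**
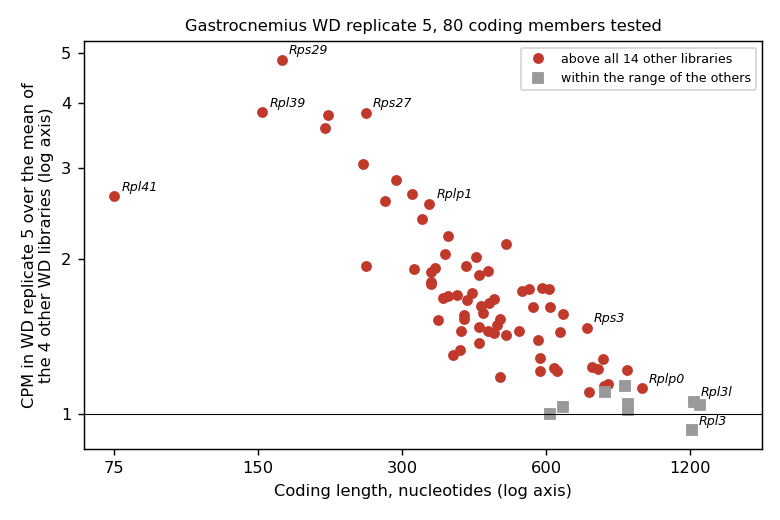
CPM of each of 80 coding members in gastrocnemius WD replicate 5 over the mean of the other 4 WD libraries (y, log axis) against coding length (x, log axis). Filled circles mark the 71 members above all 14 other libraries and squares the others. The fold was 4.85 in *Rps29* and 0.932 in *Rpl3*.

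The members varied more in gastrocnemius WD, the group of this library, than in the other groups. The median within-group SD of a member's log2 CPM was 0.319 in WD, against 0.0937 in CD and 0.113 in WD + CHP. Other genes above 10 CPM had a median SD of 0.101 in WD. Without replicate 5 the SDs in WD were 0.142 for the members and 0.0844 for these other genes. In kidney the members' median SD was 0.0722 to 0.0984.

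The second question was what CHP changed on the WD. In kidney 0 of 86 members were called for WD + CHP vs. WD, where 0.105% of all genes were called, and 0 had an unadjusted p under 0.05, where 11.4% of all genes did. By fold change 13 members were higher and 73 lower, with a median of -0.041 against -0.0058 over all genes. All 10 role-fixed members lay on the lower side, by -0.11 to -0.027. Members of low p included *Rps28* (-0.15, adjusted p = 0.443), *Rpl37a* (-0.12, adjusted p = 0.472), *Rpl14* (-0.094, adjusted p = 0.472) and *Rps26* (-0.11, adjusted p = 0.535). No member's groups were free of overlap, where 2.36% of all genes' were. Without kidney WD replicate 5 the median was -0.027, and with 1 library left out it ranged from -0.062 (without WD + CHP replicate 2) to -0.020 (without WD + CHP replicate 1). No marker of another cell type was called. On the lower side were most markers of several types, with 0 of 7 lymphocyte (median -0.51), 0 of 6 fibroblast, 0 of 5 endothelial, 1 of 8 macrophage and 1 of 6 hepatocyte markers higher. Of adipocyte markers 5 of 7 were higher, and of proximal tubule markers 6 of 10. Their part in the members' values was not tested. The WD libraries stand in this comparison and in that of the diets, so opposite signs in the 2 are not independent.

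In gastrocnemius 0 of 84 members were called for WD + CHP vs. WD, where 0.409% of all genes were, and 2 had an unadjusted p under 0.05, where 12.5% of all genes did. With all libraries 13 members were higher and 71 lower, with a median of -0.088 against -0.013 over all genes. The median was -0.18 for members under 400 nt, none of which was higher, -0.086 for those of 400 to 600 nt and -0.031 for those over 600 nt. Without WD replicate 5 the median turned to 0.067, with 75 members higher and 9 lower, and 0 were called, where 0.354% of all genes were. The log2 fold change of *Rps29* went from -0.48 to 0.35 with the same step. *Rpl13a* (-0.30, adjusted p = 0.538), *Rpl36a* (-0.28, adjusted p = 0.546) and *Rps6*, the substrate of S6 kinase (-0.10, adjusted p = 0.551), had the lowest p values after *Rpl3l* and *Rpl3*. Without WD replicate 5 these 3 were at -0.104, -0.039 and -0.033. Adipocyte markers moved with these groups, with 4 of 9 called lower in WD + CHP vs. WD and 4 called higher in WD vs. CD, where 1 was also called lower. Their summed level ranged over 1387 to 1941 CPM among CD libraries, 1386 to 2047 among WD libraries and 1218 to 1850 among WD + CHP libraries. Other lists were lower in WD + CHP too with none called. Higher were 0 of 6 slow fibre (median -0.32), 0 of 8 macrophage, 0 of 4 erythroid, 0 of 4 hepatocyte and 1 of 6 fibroblast markers. Hepatocyte markers summed to 0.632 to 60.5 CPM among WD libraries and 0.42 to 2.41 CPM among WD + CHP libraries, with *Alb* highest in WD replicate 3. The part of these lists in the members' values was not tested. With the adipocyte score as a covariate, added after the data were seen, the members' median was -0.219 for WD vs. CD and turned to 0.17 for WD + CHP vs. WD, where *Rpl36a* (0.25) and *Rps6* (0.039) also changed sign.

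**Figure D4:**
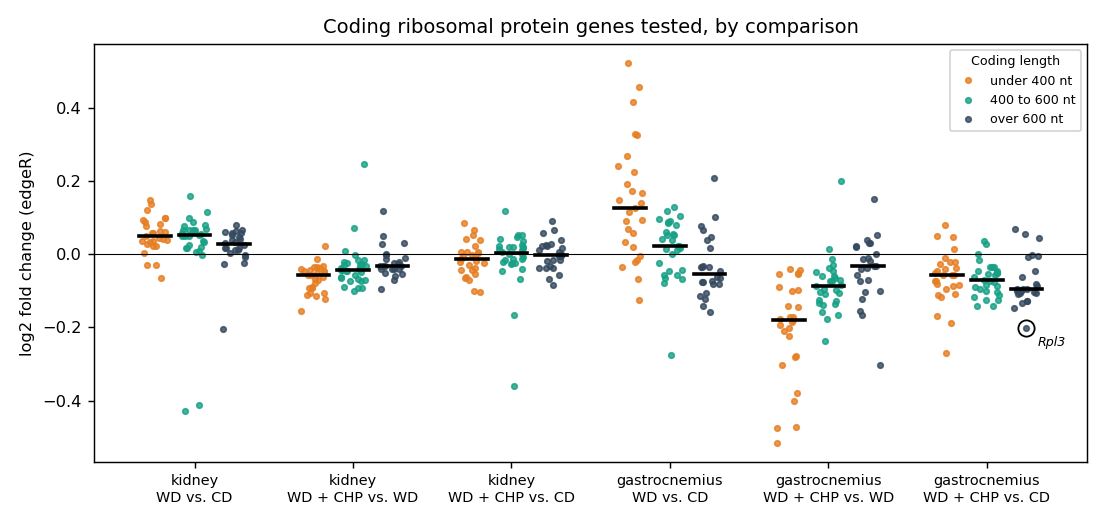
Log2 fold change (edgeR) of each coding member tested in the 6 comparisons, by coding length, with bars at the medians and a circle around the called member *Rpl3*. In gastrocnemius the medians under 400 nt were 0.13 for WD vs. CD and -0.18 for WD + CHP vs. WD, both with WD replicate 5 included.

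In gastrocnemius the WD + CHP and WD libraries did not overlap for *Rpl3* and its paralog *Rpl3l*. *Rpl3* encodes a protein that reaches towards the peptidyl transferase centre (ENSMUSG00000060036, chr15:80077791-80091868, minus strand), and *Rpl3l* the form known from muscle (ENSMUSG00000002500, chr17:24727820-24736143, plus strand). *Rpl3* stood at 47.0, 47.7, 45.4, 39.7 and 48.5 CPM for CD, at 44.0, 48.0, 45.3, 43.4 and 42.1 in WD and at 36.9, 40.8, 40.3, 40.7 and 39.9 in WD + CHP. Every WD + CHP library was below every WD library. *Rpl3l* stood at 433.0, 418.9, 408.5, 426.7 and 405.0 CPM for CD, at 364.2, 375.7, 383.6, 412.9 and 406.3 in WD and at 429.1, 450.5, 427.4, 428.1 and 422.0 in WD + CHP. Every WD + CHP library was above every WD library, and CD overlapped both. Between WD + CHP and WD the groups were free of overlap for 2.83% of all genes, and these 2 were the only such members.

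Neither gene passed the threshold for WD + CHP vs. WD, with 0.15 ± 0.043 (SE, adjusted p = 0.157) for *Rpl3l* and -0.17 ± 0.055 (SE, adjusted p = 0.221) for *Rpl3*. With the adipocyte covariate *Rpl3* was at -0.0024 (adjusted p = 0.997), and under the other settings it ranged from -0.209 to -0.138. The share of *Rpl3l* in the CPM of the pair was 90.2% ± 0.816 for CD, 89.7% ± 0.838 for WD and 91.6% ± 0.327 for WD + CHP (SD, n = 5). The log2 ratio of *Rpl3l* to *Rpl3* was 0.32 higher in WD + CHP than in WD, with no overlap. This absence of overlap follows from that of the 2 genes and is no separate evidence, and the pair was singled out after its values had been seen, so no test is given. Without WD replicate 5 the share in WD was 89.5% ± 0.761 (SD, n = 4). Against CD the ratio was 0.24 higher in WD + CHP, and WD differed from CD by -0.07, with overlap in both. In kidney *Rpl3l* was at 1.59 CPM and *Rpl3* at 219 CPM on average, and the log2 ratio differed from group to group by -0.28 to 0.16, with overlap in each case.

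**Figure D5:**
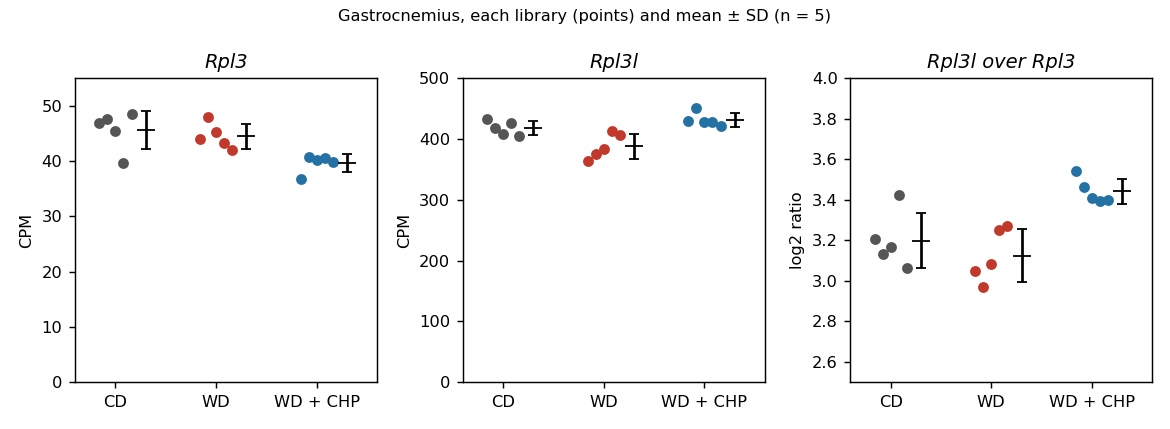
CPM of *Rpl3* and *Rpl3l* and their log2 ratio in each gastrocnemius library (points), with the mean and SD (bars, n = 5). *Rpl3* was lower and *Rpl3l* higher in every WD + CHP library than in every WD library.

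The other paralog pairs were also set side by side. *Rpl22l1* made 3.78%, 3.48% and 3.49% of the pair with *Rpl22* in kidney (CD, WD and WD + CHP) and 23.9%, 23.2% and 21.6% in gastrocnemius. *Rps27l*, known as a target of p53, made 27.8%, 28.0% and 28.5% of the pair with *Rps27* in kidney and 55.5%, 55.4% and 57.2% in gastrocnemius. *Rpl7l1* made 18.0%, 17.8% and 18.4% of the pair with *Rpl7* in kidney and 13.4%, 14.4% and 14.6% in gastrocnemius. In these pairs, groups overlapped except for *Rpl7l1* in gastrocnemius, where every WD + CHP library was above every CD library. The annotated pseudogene *Rps4l* made 4.39%, 4.04% and 4.11% of the pair with *Rps4x* in kidney and 1.10%, 0.962% and 1.09% in gastrocnemius. Without gastrocnemius WD replicate 5 the WD share was 22.2% for *Rpl22l1*, 58.8% for *Rps27l*, 14.5% for *Rpl7l1* and 1.06% for *Rps4l*. These pairs were not tested.

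The paralogs *Rpl10l* and *Rpl39l*, which are known from testis, were near 0 outside 1 library. *Rpl10l* had 0 counts in all 15 kidney libraries, which allows up to 3 counts per library, and 54 counts in gastrocnemius CD replicate 5, where the next highest gastrocnemius library had 1. *Rpl39l* had 35 counts in the same library, against at most 4 in the others. Transcripts known from sperm cells were high in it too, with 475 counts of *Prm2* (next highest 4), 461 of *Odf1* (next highest 4) and 385 of *Akap4* (next highest 2), from a list made after the data were seen. Their source was not tested. Neither paralog passed the filter on low counts. Without this library 0 members were called in gastrocnemius for WD vs. CD or for WD + CHP vs. CD, where 6.21% and 6.73% of all genes were, and the medians were 0.023 and -0.068.

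WD + CHP was also set against CD, which shares its libraries with the comparisons above. In kidney 0 of 86 members were called, where 12.1% of all genes were, and 2 had an unadjusted p under 0.05, where 27.4% of all genes did. Here 41 members were higher and 45 lower, with a median of -0.0032 against -0.0050 over all genes, and with library totals in place of TMM scaling 8 were higher and 78 lower. With 1 library left out the median ranged from -0.028 (without CD replicate 1) to 0.038 (without CD replicate 5). The pseudogene *Rpl6l*, at the low level given above (0.67, adjusted p = 0.114), and *Rps10* (-0.36, adjusted p = 0.135) had the lowest p values. In no member were the groups free of overlap, where they were in 8.34% of all genes. *Rpl7a*, *Rps15a* and *Rpl37a* came next (0.092, -0.071 and -0.10) with adjusted p values of 0.203, 0.281 and 0.308.

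In gastrocnemius 1 of 84 members was called for WD + CHP vs. CD, where 9.4% of all genes were called and 4.55% were called lower. *Rpl3*, whose values are given above, fell by 0.20 ± 0.055 (SE), with an adjusted p of 0.0303. Its call was lost when any 1 of CD replicates 1, 2, 3 and 5 and WD + CHP replicates 1, 3 and 5 was left out, and its adjusted p ranged from 0.0073 to 0.101 over all settings. At an unadjusted p under 0.05 there were 7 members, all lower, where 25.2% of all genes were. On the lower side lay 71 members and on the higher side 13, with a median of -0.073 against -0.012 over all genes. With 1 library of CD or WD + CHP left out it ranged from -0.097 (without CD replicate 3) to -0.042 (without CD replicate 1 or WD + CHP replicate 1). Of 6 fibroblast markers 5 were lower, with *Dcn* called (-0.57), all 6 slow fibre markers were higher (median 0.37) with none called, and of the adipocyte markers *Lep* was called higher and *Cfd* lower. Mitochondrially encoded genes took 10.5% ± 0.785 of the counts in WD + CHP (SD, n = 5), against the 8.91% of CD. The part of these in the members' values was not tested. As for WD vs. CD, the long members lay lowest, at -0.095, against -0.056 for those under 400 nt and -0.069 for those between. Other genes had 0.060 under 400 nt and -0.020 over 600 nt. Without WD replicate 5 the median was -0.073, and 2 members were called, *Rpl3* (-0.20, adjusted p = 0.0247) and *Rpl22l1* (-0.27, adjusted p = 0.0271), where 11% of all genes were.

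Behind *Rpl3* came *Rpl5*, which carries the 5S ribosomal RNA into the large subunit and with *Rpl11* binds MDM2. Its CPM was 165.5, 167.9, 171.4, 166.0 and 167.2 in CD and 147.4, 154.8, 155.4, 161.6 and 147.3 in WD + CHP. All WD + CHP libraries were below all CD libraries, and in either direction the groups were free of overlap in 8.75% of all genes. Its log2 fold change was -0.13 ± 0.042 (SE), with an adjusted p of 0.0657. *Rpl6* (-0.13, adjusted p = 0.0741) and *Rps3a1* (-0.11, adjusted p = 0.15) were also among the lowest p values. The groups were also free of overlap for *Rpl6*, *Rpl7* and *Rps3a1*, each lower in WD + CHP.

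Correcting each library for trends with length and GC content changed the calls in gastrocnemius. With this correction 12 members were called lower for WD vs. CD, where 5.12% of all genes were, and 22 were called lower for WD + CHP vs. CD, where 4.9% of all genes were. The medians became -0.040 and -0.151. None was called for WD + CHP vs. WD, where 0.409% of all genes were. The 12 for WD vs. CD included *Rpl32*, *Rps18*, *Rpl8*, *Rpl3l*, *Rpl13*, *Rpl22l1*, *Rps9*, *Rpl29*, *Rps19* and *Rpl26*, with log2 fold changes of -0.20 to -0.11. The same correction without WD replicate 5 gave 15 and 28 calls, all lower, where 4.58% and 5.28% of all genes were called lower, and medians of -0.127 and -0.144. In kidney it gave 1 call for WD vs. CD, *Rps10* (-0.48, adjusted p = 0.0471), where 11.3% of all genes were called. The correction used transcript length, which reaches 5179 nt in *Rps15a*, while the length classes above used coding length. The members have short coding sequences, with a median of 456 nt against 1392 nt over the gastrocnemius genes tested. The length trend and the family therefore cannot be told apart fully.

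Whether the tissues responded differently was tested in 1 model over all 30 libraries. The model takes the libraries as independent, although kidney and gastrocnemius libraries can come from the same mice. No member was called as differing between kidney and gastrocnemius for WD vs. CD or for WD + CHP vs. WD, where 4.13% and 0.347% of 18708 genes were. At an unadjusted p under 0.05 there were 4 members and 0 members, where 17.7% and 11.8% of all genes were. Without gastrocnemius WD replicate 5 there were again 0 calls in each, and the members' medians went from 0.016 to 0.18 and from 0.033 to -0.119. Members of low p for WD vs. CD included *Rpl6* (0.16, kidney minus gastrocnemius, adjusted p = 0.143) and *Rpl4* (0.15, adjusted p = 0.174). For WD + CHP vs. WD they were *Rpl13a* (0.34, adjusted p = 0.498) and *Rpl3* (0.12, adjusted p = 0.559).

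Other genes of protein synthesis were read from lists, whose counts stand beside the 9.65% (kidney) and 8.63% (gastrocnemius) of all genes called for WD vs. CD and the 12.1% and 9.4% called for WD + CHP vs. CD. Of 11 elongation factors, 0 were called in kidney for WD vs. CD or WD + CHP vs. WD, and 1, the ribosome recycling factor *Abce1* (0.12), was called higher for WD + CHP vs. CD. In gastrocnemius 0, 0 and 1 were called, the 1 being *Eef1a1*, which brings aminoacyl-tRNA to the ribosome and is a TOP mRNA (-0.25, adjusted p = 0.026, WD + CHP vs. CD). Of 13 other TOP mRNAs, *Pabpc1*, the poly(A)-binding protein, was called lower in the same comparison (-0.29), *Nap1l1* was called higher in gastrocnemius for WD vs. CD (0.18), *Vim* in kidney for WD vs. CD (0.24) and *Tpt1* in kidney for WD + CHP vs. CD (0.21). Of 37 initiation factors, *Eif4a1*, the helicase of the cap complex, was called higher in gastrocnemius for WD vs. CD (0.22) and WD + CHP vs. CD (0.17), and *Eif4e*, which binds the cap, in kidney for the same comparisons (0.12 in each). The eIF2B subunit *Eif2b2* was called lower in gastrocnemius for WD vs. CD (-0.19), its partner *Eif2b4* higher there for WD + CHP vs. CD (0.19) and the eIF2 subunit *Eif2s1* higher in kidney for WD + CHP vs. CD (0.16).

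Of 16 regulators of ribosome production tested, *Myc*, a transcription factor that drives ribosome genes, was called lower in gastrocnemius for WD vs. CD (-0.64) and WD + CHP vs. CD (-0.79), as was *Deptor*, an inhibitor of mTOR (-0.41 and -0.49). In kidney *Maf1*, a repressor of RNA polymerase III, was called lower in the same comparisons (-0.20 and -0.21), as was *Trp53* (-0.19 and -0.26). *Deptor* was called lower in kidney for WD vs. CD (-0.17), and *Larp4* higher for WD + CHP vs. CD (0.21). Of 49 biogenesis factors tested, *Utp20* was called higher in kidney (0.64 and 0.60). For WD + CHP vs. CD *Heatr1* was called higher (0.26) and *Tcof1* lower (-0.21) in kidney, and *Riok1* lower in gastrocnemius (-0.30). In kidney WD vs. CD this was 1 of 49 called, below the share of all genes. None of these 5 lists held a call for WD + CHP vs. WD in either tissue.

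The ribosome of mitochondria, whose proteins are coded by a separate gene family, lay on the other side of the cytosolic members in gastrocnemius for WD + CHP vs. CD. Of its 77 genes 73 were higher, with a median of 0.093, and 4 were called higher, among them *Mrps9* (0.23), *Mrpl3* (0.22) and *Mrpl28* (0.30), where 9.4% of all genes were called in either direction. The share called was thus below that of all genes. The nuclear genes of the respiratory chain lay on the same side, with 75 of 77 higher, a median of 0.20 and 10 called higher. The cytosolic members had a median of -0.073 there. In kidney 60 of the 77 were higher for WD + CHP vs. CD, with a median of 0.038 and 5 called, where 12.1% of all genes were. For WD vs. CD, 3 of the 77 were called in kidney and 1 in gastrocnemius, all higher, where 9.65% and 8.63% of all genes were called.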

How the data were processed

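RNA-seq was analysed in kidney and gastrocnemius, 5 libraries per group. The deposited values are unnormalised counts of reads on each gene, from polyA RNA sequenced on the BGISEQ-500, cleaned with SOAPnuke and aligned with STAR 2.7.3a to GRCm38 per the submitters' processing notes. The counting tool, annotation, strand setting and treatment of reads with several matches are not given in the sources used here. Reads of overlapping genes and near-identical copies may therefore be split or lost. All columns matched a library label.

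Members and gene lists were chosen with earlier results of these data known. The counts were filtered with filterByExpr (minimum count 10) in edgeR 4.0.16 under R 4.3.3. Each tissue was fitted in 1 quasi-likelihood model of its 3 groups after TMM scaling, and a two-sided adjusted p (Benjamini-Hochberg, all genes tested) under 0.05 was a call. CPM were made with TMM-scaled totals, and a prior count of 2 was used on the log2 scale. Ratios of paralogs added 0.01 CPM to each gene. The tests were run on simulated data first. Of 50 genes changed by a log2 fold of 0.15, 2% were called in each tissue for WD vs. CD. At 0.25 this was 42% in kidney and 10% in gastrocnemius, and at 0.5 it was 92% and 88%. An absence of calls therefore does not show that small changes are absent. Plots were drawn with matplotlib 3.10.9.

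In each comparison the text names the called members, or the 5 of lowest p where fewer than 5 were called, members fixed by role, the paralog pairs, and up to 3 called genes of each other list. Some members that this rule selects are not reported here, although all counts and medians include them. Lengths, exons and coordinates are from GENCODE (GRCm38), and starts from RefSeq. Alternatives were DESeq2 1.42.0, limma-voom (limma 3.58.1), other scalings and filters, a length and GC correction, a replicate block, a fit of only the 2 groups compared, an adjusted p under 0.1 and each library left out. An adipocyte covariate and the length and GC correction on 14 libraries were added after the data were seen. Totals of 37189192 to 53282969 counts make counting error small for all but the lowest members, and library spread sets the precision.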

Additional observations from a re-analysis of the deposited data

Results flagged for a closer look

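In groups of 5 libraries, single values were looked at where the gap to the nearest other library, as a share of the group's range, was over 0.71. Chance alone passes this in about 1 group in 20. Over all members, 2 of 86 passed in kidney CD, 10 in kidney WD (9 of them in 1 library), 3 in kidney WD + CHP, 5 of 86 in gastrocnemius CD, 36 of 84 in gastrocnemius WD (35 of them in 1 library) and 3 of 84 in gastrocnemius WD + CHP.

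In gastrocnemius WD, replicate 5 stood far above the other libraries in *Rpl39* (gap over range 0.887), *Rps29* (0.86), *Rps27* (0.836), *Rpl41* (0.807), *Rpl10* (0.785), *Rpl22l1* (0.779), *Rplp2* (0.773), *Rps27l* (0.771) and *Rplp1* (0.765). In gastrocnemius CD, replicate 5 stood alone in *Rpl10l* and *Rpl39l*, with a gap equal to the whole range (1 for each). In gastrocnemius WD + CHP, *Rpl3* was lowest in replicate 1 (0.782), *Rpl3l* highest in replicate 2 (0.749) and *Rps4l* lowest in replicate 1 (0.736).

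In kidney WD, 1 library was low in the median of the coding members (0.814). *Rps29* was low in kidney CD replicate 1 (0.745). In kidney WD + CHP, *Rplp0* was low in replicate 1 (0.785) and *Rpl22* high in replicate 2 (0.718).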

How the results depend on the processing

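In kidney, 0 members were called under the settings run, except 1 for WD vs. CD with the length and GC correction or at an adjusted p under 0.1 (*Rps10* in each), 1 without WD replicate 2 (*Rpl28*, range 0 to 1 over left-out libraries) and 1 for WD + CHP vs. CD with that correction and the replicate block. In gastrocnemius WD vs. CD, the 1 call became 2 with DESeq2 and at an adjusted p under 0.1, 0 with total counts, without a filter, with the replicate block, with only the 2 groups or with the adipocyte covariate, 12 with the length and GC correction, 7 with the block as well, 15 with it on 14 libraries, and 0 to 3 with libraries left out. For WD + CHP vs. WD it was 0 except 1 with DESeq2 (*Rpl3l*). For WD + CHP vs. CD, the 1 call became 4 with DESeq2 and at an adjusted p under 0.1, 0 with total counts or without a filter, 22 with the length and GC correction, 15 with the block as well, 28 on 14 libraries, 2 with only the 2 groups, and 0 to 1 with libraries of CD or WD + CHP left out, against 2 without WD replicate 5. The cause was not tested. The adipocyte covariate moved the gastrocnemius median to -0.219 for WD vs. CD and 0.17 for WD + CHP vs. WD. With libraries left out these medians ranged from -0.145 to 0.0812 and from -0.14 to 0.0667, -0.145 and 0.0667 being those without WD replicate 5.

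Beside the members that turned without gastrocnemius WD replicate 5, single named members changed sign as follows. *Rpl3* in gastrocnemius WD vs. CD was at 0.029 with total counts. In gastrocnemius WD + CHP vs. WD, *Rpl36a* was at 0.25 and *Rps6* at 0.0391 with the adipocyte covariate. In WD + CHP vs. CD, *Rpl3l* was at -0.0329 with the length and GC correction and -0.0328 with the block. In the tissue difference for WD + CHP vs. WD, *Rpl8* was at 0.0181 and 0.0197 with these, and with libraries left out *Rpl39* ranged from -0.206 to 0.583 and *Rpl36a* from -0.0162 to 0.3, each lowest without gastrocnemius WD replicate 5. Deviations from the group means correlated over 0.1 in 2 of 15 same-numbered pairs of libraries in each tissue. Among pairs with other numbers this held in 1 of 60 in kidney and 11 of 60 in gastrocnemius. So few pairs cannot decide whether the numbers pair samples.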
